A study of Mus musculus with 32 samples.

Results

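The genes described here are 10 genes grouped under the name of blood-brain barrier endothelium: *Cldn5*, *Ocln*, *Tjp1*, *Pecam1*, *Plvap*, *Slc2a1*, *Slc7a5*, *Mfsd2a*, *Abcb1a* and *Abcg2*. Of these, *Plvap* is a gene of permeable vessels and is absent from mature barrier endothelium. Which cells of the artery the reads of each gene came from was not tested. The 10 genes were taken by symbol from a table of read counts for brain arteries, and all 10 were found among its 55357 Ensembl genes. The arteries came from 4 groups of 8 mice, with 1 library per mouse and no treatment. Notch3-/- mice, in which both copies of *Notch3* are inactivated, and Notch3+/+ littermates were 3 months old. TgNotch3R169C mice, a model of the inherited small vessel disease CADASIL, and non-Tg littermates were 12 months old. The transgene is a large genomic construct that holds rat *Notch3* with the R169C change; it adds to the normal mouse gene, so that *Notch3* is overexpressed, and it lies on the X chromosome of this 1 line. All lines were on a C57BL/6 background. Knockout and transgene are present in every cell of the mouse, and *Notch3* is known as a receptor of mural cells rather than of endothelium. Whole arteries were used, so that fewer endothelial cells and less RNA per endothelial cell cannot be told apart in any comparison.

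The blood-brain barrier is a property of the endothelial cells of brain vessels. Tight junctions built from claudins and occludin, and anchored inside the cell by ZO proteins, close the gaps between neighboring cells. Transport through vesicles is kept low and fenestrae are absent, so that nutrients enter through carriers and many drugs are returned to the blood by ATP-driven pumps. Tight junctions also join the endothelial cells of brain arteries, whereas the choroid plexus, the pituitary and the pineal gland have permeable, fenestrated vessels that carry PLVAP. The question addressed here is whether mRNA of these genes differed in arteries without *Notch3* and in arteries of the CADASIL model.

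The libraries held 20289487 to 54481934 counted reads. *Notch3* followed the labels: it was at 13.7 to 18.5 CPM, counts scaled to the size of the library, in Notch3-/- mice against 65.8 to 98.1 CPM in Notch3+/+ mice, and at 108 to 219 CPM in TgNotch3R169C mice against 60.1 to 85.0 CPM in non-Tg mice. The summed level of 10 general endothelial markers, which do not include the members, was 1195 to 1712 CPM over all groups. Beside it, the sums were 1135 to 4361 CPM for 8 smooth muscle genes, 3443 to 5675 CPM for 7 fibroblast genes and 1887 to 3070 CPM for 6 astrocyte genes. A set of 8 libraries stood apart. *Ttr*, the main transcript of choroid plexus epithelium, was above 1000 CPM in 1 Notch3-/-, 2 TgNotch3R169C and 4 non-Tg libraries, and *Prl*, the prolactin gene of the pituitary, was above 100 CPM in 1 Notch3+/+ library and in 2 of those 4 non-Tg libraries. The main results that these 8 libraries touch are given with and without them.

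All 10 members were detected in every library, with 61 counts for *Mfsd2a* in 1 library as the lowest. Per kilobase of exon the highest mean level over the 32 libraries was that of *Cldn5*, at 187 CPM per kb. *Slc2a1* followed at 118, *Tjp1* at 75.1, *Abcb1a* at 66.9, *Pecam1* at 50.1, *Abcg2* at 23.5, *Ocln* at 16.9, *Slc7a5* at 15.4, *Plvap* at 4.10 and *Mfsd2a* at 3.08 CPM per kb. The 6 genes at the top of this order kept it with their next neighbor in 28 to 32 of 32 libraries. The order of *Ocln* and *Slc7a5* held in 20 of 32 libraries, and that of *Plvap* and *Mfsd2a* in 14 of 32, so that neither pair could be ranked. *Mfsd2a*, the carrier of omega-3 lipids that is known as a mark of capillary endothelium, was thus 60.8-fold below *Cldn5* per kb in these arteries. Within the set, the spread over libraries was narrowest for *Tjp1*, from 59.9 to 89.9 CPM per kb, and widest for *Plvap*, from 1.13 to 29.3 CPM per kb, a 25.9-fold range. When the 4 groups were ordered by mean, no member had neighboring means that differed by more than the sum of their SDs. Groups further apart in this order can still differ by more. For *Pecam1*, Notch3+/+ mice (349.7 ± 47.9 CPM, mean ± SD) and non-Tg mice (244.5 ± 30.1 CPM) did so. The TgNotch3R169C mean of 293.4 CPM lay between them.

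**Figure D1:**
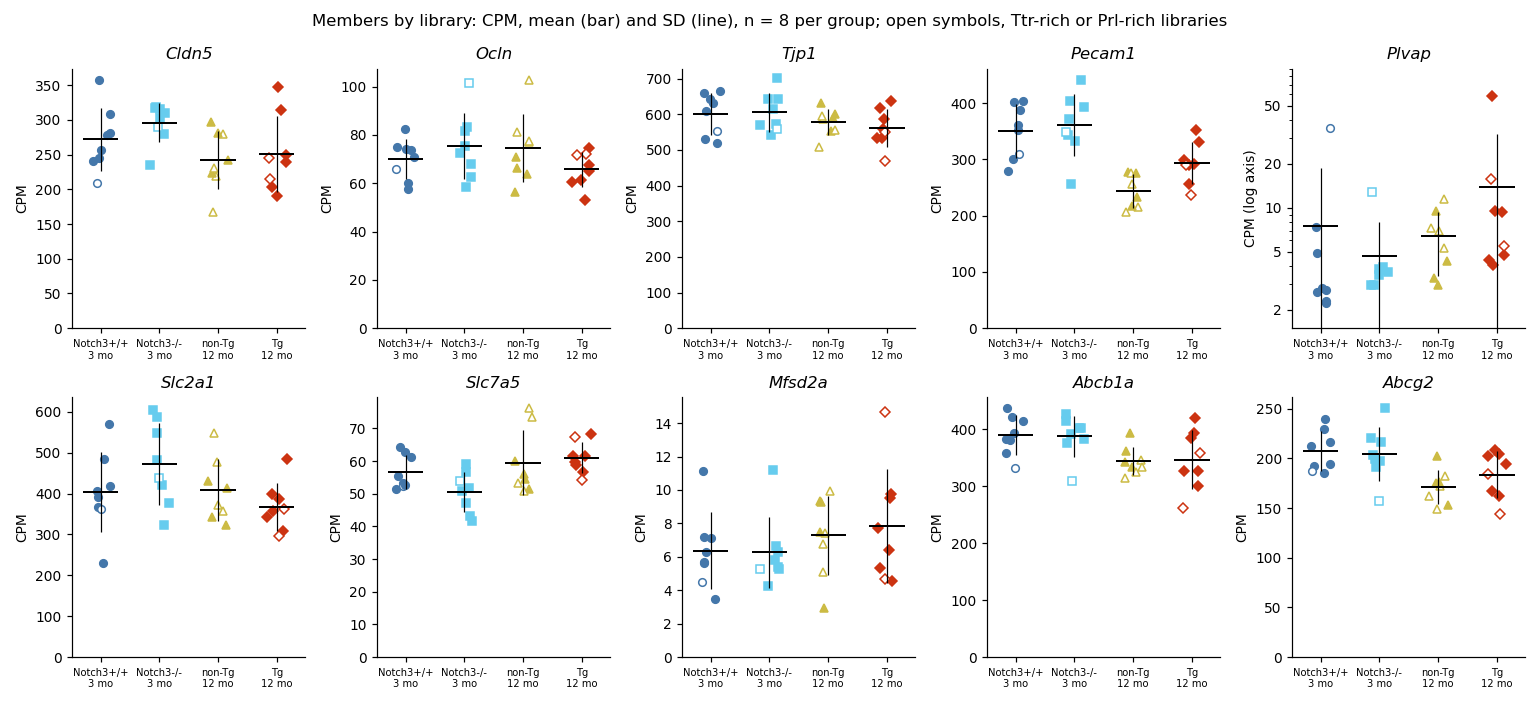
Levels of the 10 members in CPM in each of 32 libraries, by group, with the group mean (bar) and SD (vertical line, cut by the axis for *Plvap*, whose axis is logarithmic). Open symbols are the 8 libraries with *Ttr* above 1000 or *Prl* above 100 CPM; *Pecam1* is the member whose Notch3+/+ and non-Tg points do not overlap, and *Plvap* has single points at 35.3 and 58.2 CPM.

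No member was called in either mutant against its littermates, at an adjusted p below 0.05 in edgeR's quasi-likelihood test over all genes. Of all genes tested, 0.649% were called in Notch3-/- mice and 0.113% in TgNotch3R169C mice. At an unadjusted p below 0.05 there was 1 member of 10 in each comparison, *Slc7a5* in Notch3-/- mice and *Pecam1* in TgNotch3R169C mice, beside 7.69% and 7.27% of all genes. DESeq2 called 0 members in both comparisons, where it called 1.3% and 0.325% of all genes, and limma voom called 0, where it called 0.638% and 0.113%. No member had 2 groups of libraries that did not overlap in either comparison, against 0.322% and 0.141% of all genes.

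Members were called between the control groups. When non-Tg mice (12 months) were set against Notch3+/+ mice (3 months), 2 of 10 members were called, both lower, *Pecam1* and *Abcg2*, and both were called when any 1 of the 16 libraries was left out. In this comparison 7.92% of all genes were called and 4.05% were called lower. At an unadjusted p below 0.05 there were 3 members, with *Abcb1a* as the third, beside 24.2% of all genes. DESeq2 called these 3 members (10.8% of all genes) and limma voom called *Pecam1* and *Abcg2* (7.08% of all genes). *Pecam1* was the 1 member whose groups did not overlap, against 1.24% of all genes. Age, mouse line and litters differ together between these 2 groups and cannot be told apart, and each group is also the control of a mutant, so that the comparisons share libraries. Choroid plexus markers moved with this comparison. Of 7 such markers 6 were called higher in non-Tg mice, and their sum was 478 to 949 CPM in Notch3+/+ mice and 548 to 37915 CPM in non-Tg mice. All 8 smooth muscle markers were called lower, with sums of 2439 to 4361 CPM in Notch3+/+ mice and 1355 to 2111 CPM in non-Tg mice. The part of these tissues in the members' differences was not tested beyond the fits with *Ttr* or endothelial markers as a covariate and without the 5 libraries rich in *Ttr* or *Prl*, which are given for the members called or near the threshold. Without those 5 libraries 0 members were called in edgeR, and 3 were at an unadjusted p below 0.05.

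**Figure D2:**
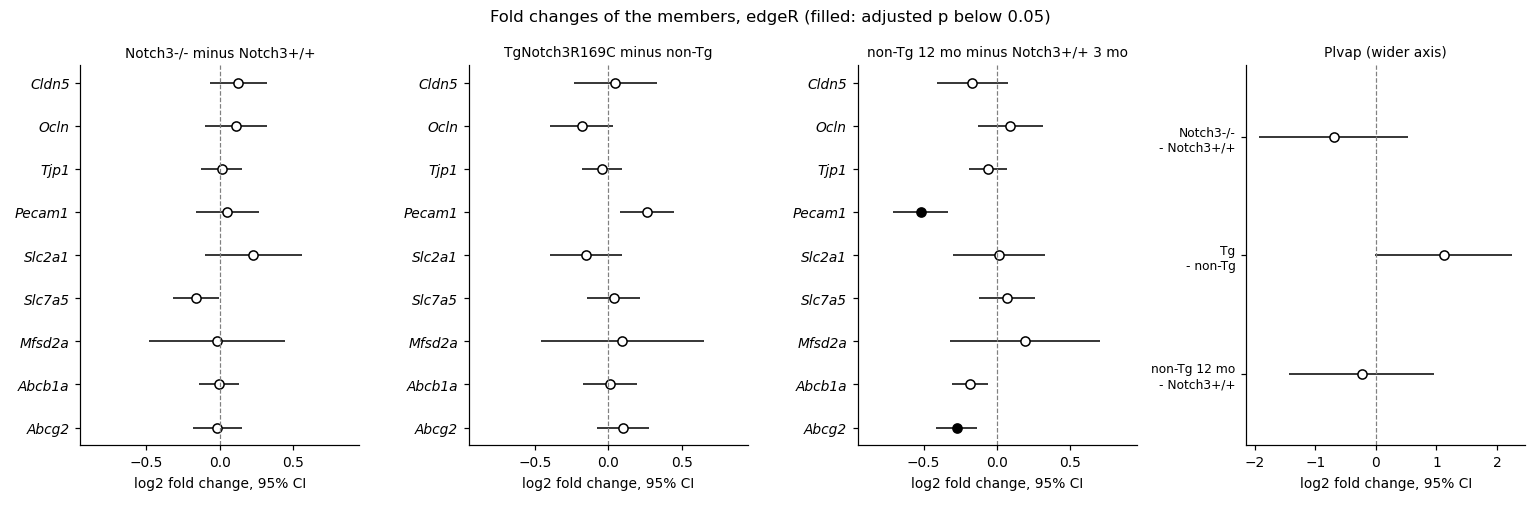
Log2 fold change of each member with its 95% CI from edgeR, for Notch3-/- against Notch3+/+, TgNotch3R169C against non-Tg, and non-Tg at 12 months against Notch3+/+ at 3 months, with *Plvap* on a wider axis of its own. Filled points, which are *Pecam1* at −0.52 and *Abcg2* at −0.28 in the comparison of control groups, had an adjusted p below 0.05.

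Claudin-5, the product of *Cldn5*, is the main sealing claudin of brain endothelium. *Cldn5* was at 209 to 357 CPM (median 268) in Notch3+/+ mice and at 236 to 318 CPM (median 306) in Notch3-/- mice. It was at 168 to 297 CPM (median 236) in non-Tg mice and at 191 to 347 CPM (median 243) in TgNotch3R169C mice. All 4 ranges overlapped, although 7 of 8 Notch3-/- libraries lay above the mean of Notch3+/+. The log2 fold change was 0.12 (95% CI, −0.07 to 0.32, adjusted p = 0.865) in Notch3-/- mice. It was 0.047 (−0.23 to 0.33, adjusted p = 0.946) in TgNotch3R169C mice, an interval that spans 0.850-fold to 1.26-fold. Between the control groups it was −0.17 (−0.41 to 0.07, adjusted p = 0.395).

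*Ocln* encodes occludin, a membrane protein of the same junctions. It was at 57.4 to 82.4 CPM (median 72.3) in Notch3+/+ mice and at 58.6 to 101 CPM (median 73.9) in Notch3-/- mice. It was at 56.5 to 103 CPM (median 74.1) in non-Tg mice and at 53.1 to 74.8 CPM (median 66.3) in TgNotch3R169C mice. The highest library in both upper ranges was one rich in *Ttr*, non-Tg replicate 4 and Notch3-/- replicate 8. The log2 fold change was 0.11 (−0.10 to 0.32) in Notch3-/- mice, −0.18 (−0.40 to 0.03) in TgNotch3R169C mice and 0.090 (−0.13 to 0.31) between the control groups, with adjusted p of 0.897, 0.721 and 0.648. Without the *Ttr*-rich and *Prl*-rich libraries the value between the control groups was −0.13, of the opposite sign.

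*Tjp1* encodes ZO-1, which ties the junction to the actin cytoskeleton. It was the steadiest member, at 520.5 to 666 CPM (median 621) in Notch3+/+ mice and at 543 to 702 CPM (median 594) in Notch3-/- mice. It was at 508 to 631 CPM (median 588) in non-Tg mice and at 468 to 636 CPM (median 554) in TgNotch3R169C mice. The log2 fold changes were 0.012 (−0.13 to 0.15), −0.044 (−0.18 to 0.09) and −0.062 (−0.19 to 0.07) in the 3 comparisons. As ratios these intervals span 0.917-fold to 1.11-fold in Notch3-/- mice and 0.883-fold to 1.06-fold in TgNotch3R169C mice.

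*Pecam1* encodes CD31, an adhesion molecule found at the borders of endothelial cells in vessels of all kinds. It was at 280 to 404 CPM (median 357) in Notch3+/+ mice and at 206 to 277 CPM (median 245) in non-Tg mice aged 12 months. Every non-Tg library was below every Notch3+/+ library. *Pecam1* fell by 30.3% between these groups (log2 fold change −0.52, SE 0.089, 95% CI, −0.71 to −0.33, edgeR adjusted p = 0.00285), and the direction was the same in 8 of 8 libraries against the Notch3+/+ mean. Without the 5 *Ttr*-rich or *Prl*-rich libraries the difference was of like size, −0.50, and missed the threshold at an adjusted p of 0.0506. With *Ttr* as a covariate it was −0.44 (adjusted p = 0.0762), and with the endothelial markers as a covariate it was −0.40 (adjusted p = 0.0154).

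The general endothelial markers were mostly below 0 as well. Of these 10 genes 0 passed the test between the control groups, 5 had an unadjusted p below 0.05, 9 were below 0 and their median log2 fold change was −0.15, beside a median of 0.0026 over all genes. *Cdh5*, the cadherin of endothelial junctions, was at −0.16 (SE 0.052, adjusted p = 0.0628), and *Kdr*, the main VEGF receptor, was at −0.29 (SE 0.099, adjusted p = 0.0781). DESeq2 called both (adjusted p of 0.0382 and 0.0490). In edgeR *Cdh5* was called without Notch3+/+ replicate 1 or 3 (−0.18 and −0.19, adjusted p of 0.0454 and 0.0248), and *Kdr* without Notch3+/+ replicate 1 or 3 or non-Tg replicate 2 (−0.34, −0.33 and −0.34, adjusted p of 0.0229, 0.0427 and 0.0411). Without the 5 *Ttr*-rich or *Prl*-rich libraries they were at −0.13 and −0.33, with adjusted p of 0.283 and 0.197. Whether the change of *Pecam1* differed from theirs was not tested. Of 8 arterial endothelial markers, all 8 were below 0 and 2 were called lower, the gap junction genes *Gja5* at −1.16 (adjusted p = 0.00317) and *Gja4* at −0.53 (adjusted p = 0.0180). Without the 5 libraries these were at −1.17 and −0.47, with adjusted p of 0.0801 and 0.139.

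*Pecam1* was at 236 to 353 CPM (median 291) in TgNotch3R169C mice. In 7 of 8 of these libraries it was above the mean of the non-Tg littermates, and the groups overlapped. The log2 fold change was 0.26 (SE 0.088, 95% CI, 0.08 to 0.45), with an unadjusted p of 0.00847 and an adjusted p of 0.580. Over the alternatives the log2 fold change was 0.17 to 0.31 and the adjusted p was 0.271 to 0.881. Of the 10 general endothelial markers, 9 were above 0 in TgNotch3R169C mice and 0 were at an unadjusted p below 0.05, with a median of 0.098. Whether *Pecam1* differed from them was not tested. The non-Tg libraries of this comparison are the same ones that were low against Notch3+/+ mice. In Notch3-/- mice *Pecam1* was at 257 to 440.5 CPM (median 361), with a log2 fold change of 0.051 (−0.16 to 0.26, adjusted p = 0.974).

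*Plvap* encodes the protein of the diaphragms that span fenestrae and caveolae. It is absent from mature barrier endothelium and present in the permeable vessels of choroid plexus, pituitary and pineal gland. *Plvap* was at 2.25 to 35.3 CPM (median 2.80) in Notch3+/+ mice and at 2.95 to 12.8 CPM (median 3.68) in Notch3-/- mice. It was at 2.97 to 11.4 CPM (median 6.17) in non-Tg mice and at 4.08 to 58.2 CPM (median 7.42) in TgNotch3R169C mice. Single libraries set the upper ends. In the other 7 libraries the highest value was 7.41 CPM in Notch3+/+ mice, 3.96 CPM in Notch3-/- mice and 15.8 CPM in TgNotch3R169C mice.

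The 8 libraries rich in *Ttr* or *Prl* held ranks 2 to 5 and 10 to 13 of the 32 libraries by *Plvap*. Notch3+/+ replicate 5, second at 35.3 CPM, had 5815 CPM of *Prl*. TgNotch3R169C replicate 5, Notch3-/- replicate 8 and non-Tg replicate 2 followed at 15.8, 12.8 and 11.4 CPM of *Plvap*, with 12892, 22667 and 7895 CPM of *Ttr*. The top library, TgNotch3R169C replicate 7, was rich in neither, with 15.1 CPM of *Ttr* and 0 CPM of *Prl*. It had 10.1 CPM of *Tph1*, an enzyme of the melatonin pathway that is abundant in the pineal gland, and 1 library had more. This was Notch3-/- replicate 2, at 17.7 CPM, where *Plvap* was at 3.62 CPM, so that high *Tph1* did not always come with high *Plvap*. In the remaining libraries *Tph1* was at 0.210 to 2.54 CPM. In each of these libraries *Cldn5* remained the more abundant gene, and *Plvap* was between 0.649% and 30.5% of *Cldn5* in CPM. The part of choroid plexus, pituitary or pineal tissue in these levels was not tested.

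**Figure D3:**
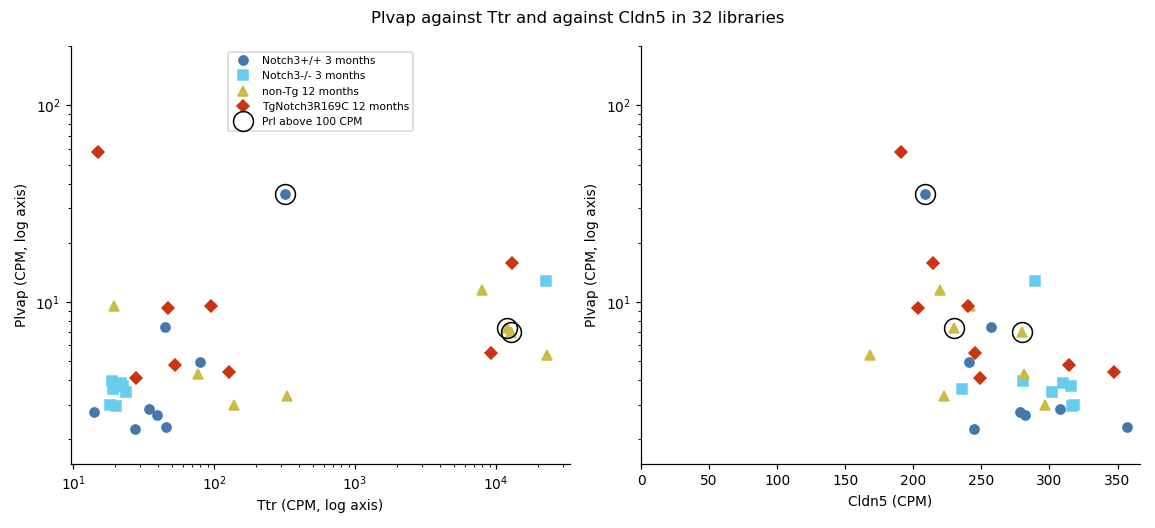
*Plvap* in CPM (log axis) in 32 libraries, against *Ttr* in CPM (log axis, left) and against *Cldn5* in CPM (right); colors and symbols mark the groups, and circles mark libraries with *Prl* above 100 CPM. The libraries with *Ttr* above 1000 CPM have 5.34 to 15.8 CPM of *Plvap*, and the 2 highest points, at 35.3 and 58.2 CPM, lie at lower *Ttr*.

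No comparison of groups passed the test for *Plvap*. The log2 fold change was −0.70 (SE 0.58, adjusted p = 0.883) in Notch3-/- mice and turned to 0.38 without Notch3+/+ replicate 5. It was 1.12 (SE 0.54, 95% CI, −0.01 to 2.26, adjusted p = 0.679) in TgNotch3R169C mice, with 4 of 8 libraries above the non-Tg mean, and 0.24 without TgNotch3R169C replicate 7. Between the control groups it was −0.23 (SE 0.57, adjusted p = 0.847) and turned to 0.83 without Notch3+/+ replicate 5 (adjusted p = 0.139). The mean of the 7 Notch3+/+ libraries left without that replicate was 3.59 ± 1.91 CPM (SD), and that of the 7 Notch3-/- libraries without replicate 8 was 3.51 ± 0.405 CPM (SD).

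*Slc2a1* encodes GLUT1, the glucose carrier of the barrier. It was at 231 to 569 CPM (median 400.1) in Notch3+/+ mice and at 323 to 604 CPM (median 459) in Notch3-/- mice. It was at 324 to 547 CPM (median 393) in non-Tg mice and at 296 to 486 CPM (median 359) in TgNotch3R169C mice. Spread within groups was wide, with a 2.62-fold range over all libraries. The log2 fold change was 0.23 (−0.10 to 0.56, adjusted p = 0.842) in Notch3-/- mice, −0.15 (−0.40 to 0.09, adjusted p = 0.775) in TgNotch3R169C mice and 0.013 (−0.30 to 0.33, adjusted p = 0.970) between the control groups. In TgNotch3R169C mice 1 of 8 libraries lay above the non-Tg mean, and without the *Ttr*-rich and *Prl*-rich libraries the value was 0.0096, of the opposite sign.

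*Slc7a5* encodes LAT1, which carries large neutral amino acids, L-DOPA and thyroid hormone. It was at 51.6 to 64.4 CPM (median 54.4) in Notch3+/+ mice and at 41.7 to 59.3 CPM (median 51.4) in Notch3-/- mice. One of 8 Notch3-/- libraries lay above the Notch3+/+ mean, and the groups overlapped. The log2 fold change was −0.16 (SE 0.073, 95% CI, −0.32 to −0.01), with an unadjusted p of 0.0395 and an adjusted p of 0.606. It was at 50.9 to 76.2 CPM (median 55.3) in non-Tg mice and at 54.3 to 68.2 CPM (median 60.7) in TgNotch3R169C mice, with a log2 fold change of 0.035 (−0.15 to 0.22, adjusted p = 0.939). *Slc3a2*, which encodes the heavy chain that LAT1 pairs with, was at −0.026 (SE 0.059) in Notch3-/- mice and at −0.12 (SE 0.042) in TgNotch3R169C mice, and passed the test in neither.

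*Mfsd2a* encodes a lysolipid carrier that also restrains vesicle transport across brain endothelium. It was at 3.49 to 11.2 CPM (median 5.99) in Notch3+/+ mice and at 4.25 to 11.2 CPM (median 5.61) in Notch3-/- mice. It was at 2.95 to 9.96 CPM (median 7.43) in non-Tg mice and at 4.56 to 14.6 CPM (median 7.05) in TgNotch3R169C mice. These ranges overlapped in all pairs of groups. The log2 fold changes were −0.020 (−0.49 to 0.45), 0.095 (−0.46 to 0.65) and 0.19 (−0.32 to 0.70) in the 3 comparisons. The intervals were wide, and that in TgNotch3R169C mice ran from 27.3% lower to 56.9% higher.

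*Abcb1a* and *Abcg2* encode P-glycoprotein and BCRP, the main drug efflux pumps of the barrier. *Abcb1a* was at 332 to 438 CPM (median 388) in Notch3+/+ mice and at 309 to 427 CPM (median 397) in Notch3-/- mice. It was at 314 to 393 CPM (median 338) in non-Tg mice and at 262 to 419 CPM (median 343) in TgNotch3R169C mice. The groups overlapped, and the lowest library of the Notch3-/-, non-Tg and TgNotch3R169C groups was in each case a *Ttr*-rich one, and that of the Notch3+/+ group the *Prl*-rich one. Its intervals in the mutants were narrow around 0, with log2 fold changes of −0.0057 (−0.14 to 0.13) in Notch3-/- mice and 0.012 (−0.17 to 0.19) in TgNotch3R169C mice. Between the control groups it was −0.19 (SE 0.057, adjusted p = 0.0557). This value was past the threshold in DESeq2 (adjusted p = 0.0278) and in edgeR without Notch3+/+ replicate 1 (−0.20, adjusted p = 0.0491), without Notch3+/+ replicate 5 (−0.22, adjusted p = 0.0217) or without non-Tg replicate 1 (−0.22, adjusted p = 0.0211). It was smaller and further from the threshold with *Ttr* as a covariate (−0.085, adjusted p = 0.534), with the endothelial markers as a covariate (−0.13, adjusted p = 0.259) and without the 5 *Ttr*-rich or *Prl*-rich libraries (−0.16, adjusted p = 0.213). Of its windows of 50 exonic bases, 16.3% also occur in *Abcb1b*, its close copy, which was at group means of 7.44 to 8.93 CPM against 344 to 390 CPM for *Abcb1a*; reads of these windows could be counted to either gene or to neither.

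*Abcg2* was at 185 to 239 CPM (median 203) in Notch3+/+ mice and at 149 to 202 CPM (median 174) in non-Tg mice. The ranges overlapped slightly, and all 8 non-Tg libraries lay below the Notch3+/+ mean. *Abcg2* fell by 17.4% (log2 fold change −0.28, SE 0.067, 95% CI, −0.42 to −0.14, adjusted p = 0.0188). The value was −0.25 without the 5 *Ttr*-rich or *Prl*-rich libraries (adjusted p = 0.144), −0.19 with *Ttr* as a covariate (adjusted p = 0.263) and −0.20 with the endothelial markers as a covariate (adjusted p = 0.111). *Abcg2* was at 157 to 251 CPM (median 201) in Notch3-/- mice, with a log2 fold change of −0.017 (−0.18 to 0.15), and at 144 to 209 CPM (median 189) in TgNotch3R169C mice, with one of 0.099 (−0.08 to 0.27).

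The upstream sequences of both pumps are shown because their levels moved together across libraries, as described further down. They are from RefSeq and mouse build GRCm38.p6, which differs from the mm39 build of the counts, and run from 250 bases before to 50 bases after a transcription start. RefSeq promoter sequences were found for 7 of the 10 members (10 starts); *Pecam1*, *Plvap* and *Slc7a5* had none in the table. Capitals mark matches to AGGAAG (an ETS core), CTTTGA (a TCF/LEF core) and GGGCGG (a GC box) on either strand, with a match on the other strand shown as its reverse complement, and no match overlaps another in these windows. In *Abcg2*, which has 3 starts in the table, the start farthest downstream is shown.
*Abcb1a*, chr5:8566841-8567140, plus strand: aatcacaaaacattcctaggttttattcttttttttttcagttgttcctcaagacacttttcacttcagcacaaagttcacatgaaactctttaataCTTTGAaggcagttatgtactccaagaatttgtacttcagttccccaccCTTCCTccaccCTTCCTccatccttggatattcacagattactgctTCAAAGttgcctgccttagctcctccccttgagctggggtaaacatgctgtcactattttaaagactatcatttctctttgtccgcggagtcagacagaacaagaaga
*Abcg2*, chr6:58640296-58640595, plus strand: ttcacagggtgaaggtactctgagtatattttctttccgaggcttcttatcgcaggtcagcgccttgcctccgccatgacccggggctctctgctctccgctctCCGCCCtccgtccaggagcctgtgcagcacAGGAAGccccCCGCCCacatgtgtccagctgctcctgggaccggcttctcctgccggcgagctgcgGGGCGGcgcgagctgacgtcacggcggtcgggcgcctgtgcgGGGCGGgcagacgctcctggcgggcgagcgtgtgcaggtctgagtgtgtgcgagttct
*Abcb1a* held 2 AGGAAG, 2 CTTTGA and 0 GGGCGG matches at a GC content of 40.3%. The *Abcg2* start held 1, 0 and 4 matches at 67% GC. The *Abcg2* starts not shown held 1 and 2 AGGAAG matches. Of all 32851 promoters in the table, 35.4% held AGGAAG, 35.7% held GGGCGG and 5257 held CTTTGA, so that each motif is common and a match describes letters, not binding. Of the 10 starts of members, CTTTGA was also found in that of *Mfsd2a*, and AGGAAG in no member but these pumps.

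The members did not vary as a block. After each group's mean was removed from log2 CPM, the correlations of the 45 pairs of members over 32 libraries ran from −0.61 to 0.85, with a median of 0.0087, 23 above and 22 below 0. These values are descriptions, since the libraries share depth and tissue makeup. *Abcb1a* and *Abcg2* were the closest pair (r = 0.85), followed by *Cldn5* and *Pecam1* (0.76), *Slc2a1* and *Slc7a5* (0.65), and *Tjp1* and *Abcb1a* (0.64). *Plvap* ran against *Abcb1a* (−0.61) and *Cldn5* (−0.57). *Ocln* followed *Ttr* over libraries (0.63), while both pumps ran against it (−0.57 each).

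**Figure D4:**
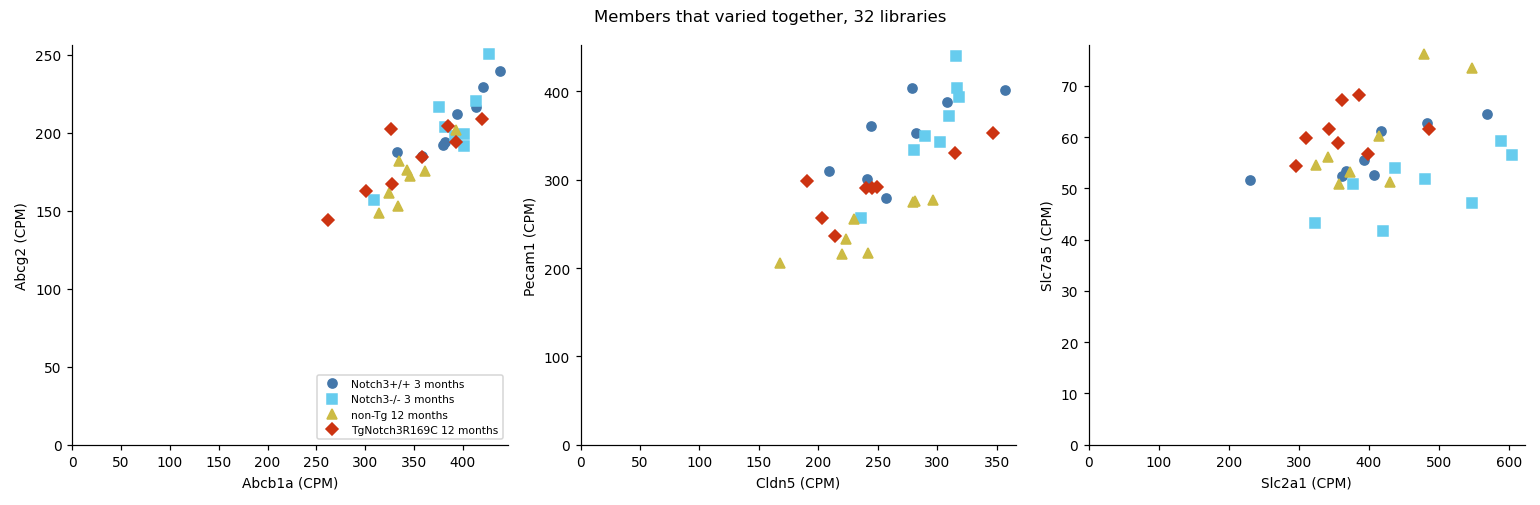
Levels in CPM of 3 pairs of members in each of 32 libraries, with colors and symbols for the groups. *Abcg2* follows *Abcb1a* across all groups (r = 0.85 with group means removed), *Pecam1* follows *Cldn5* (0.76), and *Slc7a5* follows *Slc2a1* (0.65).

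The genes most like each member by this measure, among 18554 genes, differed from member to member. *Pecam1* was most like *Golm1* (r = 0.87), *Sigirr* and *Mmrn2*, an endothelial matrix protein, and *Cldn5* was most like *Prrt4* (0.91), *Kif26a* and *Sigirr*. *Abcb1a* was most like *Foxp1* (0.90), *Atl3* and *Sema3d*, and *Abcg2* was most like *Efemp1* (0.87), *Abcb1a* and *Ccn3*. *Slc2a1* was most like *Map3k6* (0.89), *Kank3* and *Lao1*, and *Slc7a5* was most like *Ranbp9* (0.78), *Klf13* and *Coro2a*. *Tjp1* was most like *Uaca* (0.85), *Bnip2* and *Rcsd1*. *Ocln* was most like *Eps8l2* (0.93), *St6galnac2* and *Txnl1*. *Plvap* was most like *Btnl9* (0.87), *Exoc3l2* and *Fam167b*. *Mfsd2a* was most like *Sox10* (0.83), the regulator of the oligodendrocyte lineage, with *Psat1* and *Aatk* next. The correlation of *Mfsd2a* with the myelin gene *Mbp* was 0.27, and that with *Cldn5* was −0.051. Whether the reads of *Mfsd2a*, of the pumps or of the other members came from endothelium or from other cells was not tested.

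**Figure D5:**
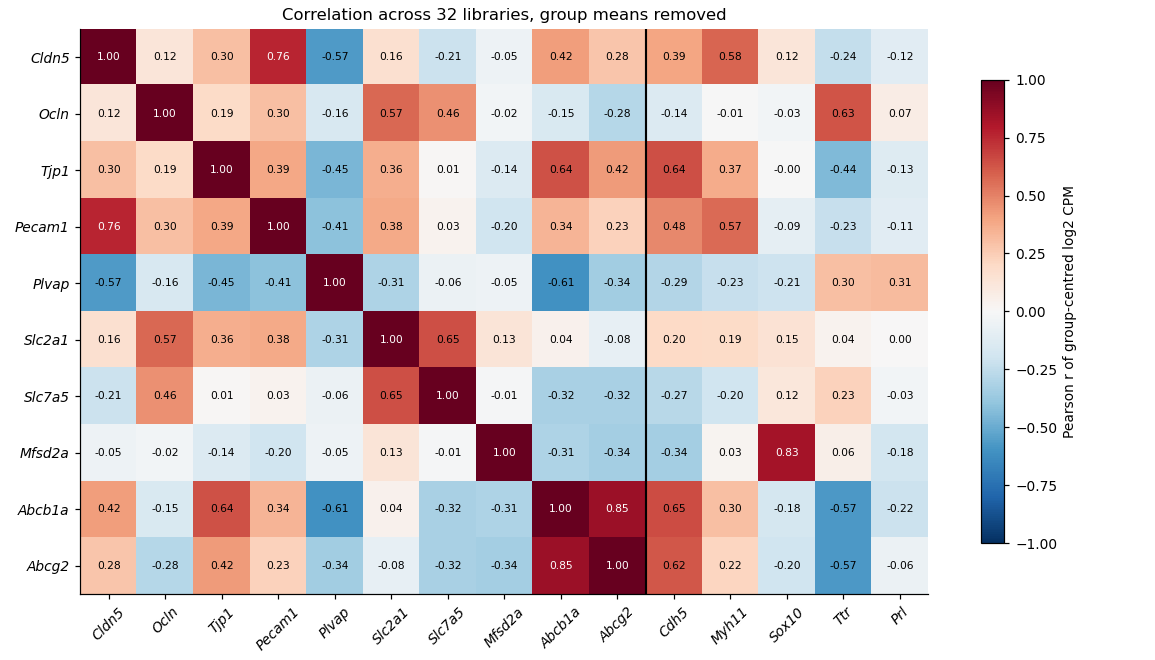
Pearson correlation of log2 CPM with group means removed, over 32 libraries, between the 10 members (rows) and the members, *Cdh5*, *Myh11*, *Sox10*, *Ttr* and *Prl* (columns, the line separates members from the others). The darkest cells off the diagonal are *Abcb1a* with *Abcg2* (0.85), *Mfsd2a* with *Sox10* (0.83) and *Cldn5* with *Pecam1* (0.76).

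No other gene of the barrier lists was called in a mutant. Of 11 other junction genes tested, 13 other solute carriers, 5 other efflux pumps, 10 genes of vesicle transport and 19 genes of the Wnt and beta-catenin pathway, which builds and maintains the barrier, 0 were called in Notch3-/- mice. The same lists, with 12 junction genes tested, gave 0 calls in TgNotch3R169C mice. Over all genes the share called was 0.649% in Notch3-/- mice and 0.113% in TgNotch3R169C mice. Lists of this size with 0 calls lie near that share. The median log2 fold change of these lists was between −0.025 and 0.12 in Notch3-/- mice and between −0.096 and 0.15 in TgNotch3R169C mice, beside −0.0011 and −0.0074 over all genes. The smallest p in Notch3-/- mice was that of *Slc7a1*, the cationic amino acid carrier, with a log2 difference of −0.16 (SE 0.040). Its adjusted p was 0.108, and it was past the threshold in DESeq2 (adjusted p = 0.0428) and in edgeR without Notch3+/+ replicate 4 (−0.17, adjusted p = 0.0324). In the Wnt list *Nkd1*, a target and inhibitor of the pathway, was at −0.34 (adjusted p = 0.330) and *Tspan12*, a coreceptor of norrin signaling, at −0.23 (adjusted p = 0.465). *Axin2*, a readout of beta-catenin signaling, was at −0.18 (adjusted p = 0.627) in TgNotch3R169C mice and at 0.037 (adjusted p = 0.977) in Notch3-/- mice.

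Other genes with small p in each list are given as values. In Notch3-/- mice they were *Jam3* at −0.12 and *Cldn12* at −0.058 among junction genes, *Slc6a6* at 0.24 among carriers, *Abcb1b* at 0.20 and *Abcc4* at 0.19 among pumps, and *Cav1* at 0.12 among vesicle genes. In TgNotch3R169C mice they were *Cgnl1* at −0.15 and *Jam3* at −0.083 among junction genes, *Slc3a2* at −0.12 and *Slc16a1* at 0.22 among carriers, *Abcc5* at 0.15 and *Abcc4* at 0.17 among pumps, *Scarb1* at 0.11 among vesicle genes, and *Lrp5* at 0.092 in the Wnt list. None of these passed the test. Of 7 genes of endothelial activation 0 were called in either mutant, beside 0.649% and 0.113% of all genes. The smallest p among them was that of *Vwf* at 0.26 and *Angpt2* at 0.077 in Notch3-/- mice, and of *Selp* at 0.76 (SE 0.25, adjusted p = 0.531) and *Icam1* at 0.23 in TgNotch3R169C mice.

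Between the control groups some of the other barrier genes were called, in both directions, beside 7.92% of all genes. Of 13 other carriers, 3 rose and 1 fell. *Slco1c1*, a carrier of thyroxine, rose from 41.7 ± 7.28 to 105 ± 78.0 CPM (mean ± SD, n = 8), a log2 difference of 1.33 (SE 0.34, adjusted p = 0.0248). It is also made by choroid plexus epithelium, and without the 5 *Ttr*-rich or *Prl*-rich libraries it was at 0.16 (adjusted p = 0.457). It was also past the threshold by 1 library, with an adjusted p of 0.0530 without non-Tg replicate 6 (log2 fold change 1.20). *Slc38a5*, a glutamine carrier, rose by 0.46 (SE 0.11, adjusted p = 0.0207) and was at 0.65 without those libraries (adjusted p = 0.0255). *Slc16a1*, the lactate carrier MCT1, fell by 0.31 (log2, SE 0.077, adjusted p = 0.0211) and was at −0.30 without those libraries (adjusted p = 0.164).

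In the vesicle list 2 of 10 genes were called, both lower. *Cavin1* and *Cavin3*, coat proteins of caveolae that smooth muscle and fibroblasts also carry, fell by log2 values of 0.31 (SE 0.070, adjusted p = 0.0135) and 0.29 (SE 0.067, adjusted p = 0.0168). Of 5 other pumps *Abcc1* rose by 0.32 (SE 0.060, adjusted p = 0.00494). In the Wnt list 2 of 19 were called. *Notum*, a secreted inhibitor of Wnt ligands, rose by 0.45 (SE 0.12, adjusted p = 0.0280), and *Tspan12* fell by 0.33 (log2, SE 0.092, adjusted p = 0.0353). Both calls depended on single libraries. That of *Notum* was lost without Notch3+/+ replicate 2, 7 or 8 or without non-Tg replicate 5, at adjusted p of 0.0570, 0.0567, 0.0516 and 0.0541 and values of 0.41, 0.44, 0.43 and 0.42. That of *Tspan12* was lost without Notch3+/+ replicate 1, 4, 5 or 6 or without non-Tg replicate 2, 4, 5 or 6, at values between −0.34 and −0.28. *Angpt2*, an antagonist of the Tie2 receptor and a gene of the activation list, fell by 0.25 (log2, SE 0.059, adjusted p = 0.0191). Of 11 other junction genes 0 were called, and the smallest p were those of *Cgn* at 1.39 (adjusted p = 0.0730) and *Afdn* at −0.15 (adjusted p = 0.0873), with 2 of 11 at an unadjusted p below 0.05. *Cgn*, the junction protein cingulin, which epithelia carry, was past the threshold in DESeq2 (adjusted p = 0.0430) and without Notch3+/+ replicate 5 (1.85, adjusted p = 0.0162). *Afdn* was past it without Notch3+/+ replicate 1 (−0.18, adjusted p = 0.0339). Over all alternatives *Cgn* was at 0.050 to 1.85, with adjusted p of 0.0162 to 0.958. For *Afdn* these ranges were −0.18 to −0.096 and 0.0339 to 0.442. Without the 5 libraries none of *Cavin1*, *Cavin3*, *Abcc1*, *Notum*, *Tspan12* and *Angpt2* was called, at adjusted p of 0.0896, 0.0592, 0.103, 0.117, 0.306 and 0.0917, with values of −0.33, −0.32, 0.23, 0.48, −0.15 and −0.22.

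The change of each member in TgNotch3R169C mice was compared with that in Notch3-/- mice in 1 fit of all 4 groups, to ask whether the mutants differed. None of the 10 members passed this test, beside 0.35% of all genes. At an unadjusted p below 0.05 there was 1 member, *Plvap*, beside 8.62% of all genes. DESeq2 and limma voom called 0 members, where they called 0.722% and 0.366% of all genes. The difference was 1.81 for *Plvap* on the log2 scale (95% CI, 0.13 to 3.50, unadjusted p = 0.0356, adjusted p = 0.542), and the single libraries named above enter it. It was −0.38 for *Slc2a1* (−0.79 to 0.03), −0.29 for *Ocln* (−0.60 to 0.01), 0.22 for *Pecam1* (−0.06 to 0.49) and 0.20 for *Slc7a5* (−0.04 to 0.44). It was −0.074 for *Cldn5* (−0.41 to 0.26), −0.054 for *Tjp1* (−0.24 to 0.13), 0.12 for *Mfsd2a* (−0.60 to 0.85), 0.019 for *Abcb1a* (−0.20 to 0.24) and 0.12 for *Abcg2* (−0.12 to 0.35). Age differs between the pairs of groups, so that genotype and age cannot be told apart in this difference. In the lists of other barrier genes 0 were called for this difference, with *Slc7a1* at 0.19 (adjusted p = 0.324) and *Slc16a1* at 0.33 (adjusted p = 0.385). Other small p in the lists were those of *Marveld3* at −2.33 and *Cgnl1* at −0.12, of *Abcc5* at 0.16 and *Abcc6* at −0.32, of *Scarb1* at 0.13 among vesicle genes, of *Tspan12* at 0.32 and *Axin2* at −0.21, and of *Selp* at 0.72 and *Icam1* at 0.28. *Marveld3*, a tight junction protein of epithelia, turned to 2.54 without the 8 *Ttr*-rich or *Prl*-rich libraries.

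Markers of other cells of the artery are given beside these counts. Of 8 smooth muscle genes 6 were called lower in Notch3-/- mice, beside 0.649% of all genes called, with *Myh11* at −1.04 (SE 0.13, adjusted p = 0.000395). In this list 7 genes were below 0 and 1 was above 0, at 0.28. All 8 were at an unadjusted p below 0.05, beside 7.69% of all genes. Among 5 pericyte genes 1 was called, *Kcnj8*, which rose by 0.46 (SE 0.080, adjusted p = 0.00848). The median of the 5 pericyte genes was 0.044, with 4 above and 1 below 0. In TgNotch3R169C mice 0 of 8 smooth muscle genes were called. All 8 were below 0, with a median log2 fold change of −0.23 beside −0.0074 over all genes. Of the 8, 3 were at an unadjusted p below 0.05, beside 7.27% of all genes. *Gja5*, a connexin of arterial endothelium, rose by 0.60 (SE 0.097, adjusted p = 0.0189). It was the 1 of 8 arterial markers called, with 5 above and 3 below 0. The non-Tg libraries here are the same ones in which *Gja5* was low against Notch3+/+ mice. The *Gja5* call in TgNotch3R169C mice was lost without non-Tg replicate 3 or 4 (0.59 and 0.58, adjusted p of 0.0574 and 0.05001), without the *Ttr*-rich and *Prl*-rich libraries (0.63, adjusted p = 0.159) and without TgNotch3R169C replicate 7 as well (0.65, adjusted p = 0.265). Over the general endothelial markers 0 of 10 were called in either mutant, beside 0.649% and 0.113% of all genes. Their medians were 0.071 in Notch3-/- mice and 0.098 in TgNotch3R169C mice.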

How the data were processed

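Arteries of the brain were dissected from 32 mice, and stranded poly(A) libraries were sequenced. The values are raw read counts per Ensembl gene, deposited by the authors in 1 table of 55357 genes. The submitters' processing notes name build mm39, bcl2fastq 2.20.0.422, cutadapt 1.10, Bowtie2 2.2.8, STAR 2.5.3a and HTSeq 0.6.1p1. The annotation release and the strand setting of the counting are not given in the sources used here. Genes on the other strand share 553 exonic bases with *Abcb1a* and 105 with *Slc2a1*, and what the strand setting did to those reads was not tested.

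Groups were taken from the labels. Low genes were removed with filterByExpr, counts were scaled by TMM, and each pair of groups was fitted in edgeR 4.0.16 (R 4.3.3) by the quasi-likelihood test, with Benjamini-Hochberg adjustment over all genes and a threshold of 0.05. The difference between mutants was an interaction in 1 fit of all 4 groups. The 95% CI are from the same fits. Levels are CPM with TMM factors, and lengths per kb are merged exons of GENCODE vM21. DESeq2 1.42.0, limma 3.58.1 (voom), other filters, covariates and left-out libraries were alternatives. The scripts were tested on simulated data. The fits without *Ttr*-rich or *Prl*-rich libraries, and the pineal gland genes, were chosen after seeing the data. The members and lists were chosen with earlier results of these data known. Named genes are the members, the genes called in a list or otherwise those with the 2 smallest p, and the 3 genes most like each member, and some results of the lists are not reported here. Where nothing says otherwise, each library is 1 mouse, and p-values measure the spread between mice.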

Additional observations from a re-analysis of the deposited data

Results flagged for a closer look

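In 6 of the 40 sets of 8 libraries (each member in each group), 1 library lay far from the others, by Dixon's ratio of its gap to the range at the 95% critical value for 8 libraries. Chance would give about 2 of 40 if the sets were independent and their values normally distributed. The sets share libraries and the ratios are of CPM without a log, so that this number is only a rough guide. Of the 6 sets, 3 were *Plvap*, with ratios of 0.844 in Notch3+/+ replicate 5 (35.3 against 7.41 CPM in the next library), 0.898 in Notch3-/- replicate 8 (12.8 against 3.96 CPM) and 0.784 in TgNotch3R169C replicate 7 (58.2 against 15.8 CPM). *Cldn5* was low in Notch3-/- replicate 2, at 235.6 CPM against 280.4 in the next library (ratio 0.543), which is the library with the highest *Tph1*. *Abcb1a* was low in Notch3-/- replicate 8, at 309 against 376 CPM (ratio 0.569), which is the *Ttr*-rich library of that group. *Mfsd2a* was high in Notch3-/- replicate 5, at 11.2 against 6.63 CPM (ratio 0.659).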

How the results depend on the processing

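Between the control groups, 2 members were called, 0 with *Ttr* as a covariate, 1 with the endothelial markers as a covariate, 0 without the *Ttr*-rich and *Prl*-rich libraries (5 of 16 left out, so that fewer libraries were tested) and 1 with the replicate block. The labels name no pairs of libraries. Deviations of libraries with the same number correlated at −0.14 to 0.34, −0.25 to 0.42 and −0.19 to 0.24 in the 3 comparisons, and 3, 1 and 2 of 8 libraries correlated best with their own number. These values cannot decide whether libraries with the same number were paired, since tissue makeup also enters them. With the replicate block, 0 members were called in either mutant and *Pecam1* alone between the control groups, since *Abcg2* was at −0.28 with an adjusted p of 0.0598. Among the other barrier genes called between the control groups, the block lost *Slco1c1*, *Slc38a5*, *Notum*, *Tspan12* and *Angpt2* (adjusted p of 0.0885, 0.0692, 0.0628, 0.107 and 0.0549), limma voom lost *Slco1c1* (0.0632), the fit without a filter *Tspan12* (0.0515) and the fit of all 4 groups *Angpt2* (0.0608). *Gja5* in TgNotch3R169C mice was lost with the block, with *Ttr*, with endothelial markers and with all 4 groups in 1 fit (adjusted p of 0.0796, 0.0642, 0.0564 and 0.348). Leaving out 1 library gave 0 to 0 members in either mutant and 2 to 3 between the control groups. Counts over all genes moved by over 1.5 times from 115 to 280 in DESeq2 and 174 with all 4 groups in 1 fit for Notch3-/-. They moved from 20 to 74 in DESeq2, 7 with *Ttr*, 10 with neuronal and 9 with endothelial markers as covariates, 6 with the block, 2 without the *Ttr*-rich and *Prl*-rich libraries, 0 without those and replicate 7, 11 without non-Tg replicate 3 or 4, 12 without TgNotch3R169C replicate 1 and 13 without non-Tg replicate 7 for TgNotch3R169C. They moved from 1398 to 2357 in DESeq2, 246 with *Ttr*, 398 with endothelial markers, 715 with the block, 236 without those libraries and 895 without Notch3+/+ replicate 7 for the control groups. For the difference between mutants they moved from 65 to 152 in DESeq2 and 28 without those libraries.

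Members near 0 changed sign. In Notch3-/- mice *Tjp1* was at −0.021 and *Pecam1* at −0.021 with endothelial markers, *Mfsd2a* at 0.043 in limma voom and 0.047 with endothelial markers, *Abcb1a* at 0.0042 without a filter and 0.0095 without the *Ttr*-rich and *Prl*-rich libraries, *Abcg2* at 0.015 without them, and *Plvap* at 0.38 in DESeq2. In TgNotch3R169C mice *Cldn5* was at −0.0061 with *Ttr*, −0.081 with endothelial markers and −0.018 without those libraries, *Mfsd2a* at −0.062 with neuronal markers and −0.014 without those libraries, *Slc2a1* at 0.0096 without those libraries, *Abcb1a* at −0.0028 in limma voom, −0.047 with *Ttr*, −0.082 with endothelial markers and −0.0014 with the block, and *Slc7a5* at −0.031 with neuronal markers. Without TgNotch3R169C replicate 7 as well, *Ocln* was at 0.031 and *Slc2a1* at 0.062. Between the control groups *Cldn5* was at 0.0049, *Ocln* at −0.13, *Tjp1* at 0.020, *Slc2a1* at −0.10 and *Slc7a5* at −0.034 with *Ttr*, *Slc7a5* at −0.0099 with endothelial markers, *Slc2a1* at −0.0014 without a filter, *Ocln* at −0.13, *Slc2a1* at −0.12, *Plvap* at 0.47 and *Slc7a5* at −0.048 without those libraries, and *Plvap* at 0.53 in limma voom, 0.0060 with neuronal markers and 0.44 with the block. For the difference between mutants *Abcb1a* was at −0.048 with *Ttr*, −0.0054 with endothelial markers and −0.0074 without those libraries, *Marveld3* at 1.999 with *Ttr* and 2.54 without them, and *Cgnl1* at 0.012 without them. The cause of these turns was not tested.

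When 1 library was left out, sign changes were seen in Notch3-/- mice for *Tjp1* (−0.011 to 0.039), *Mfsd2a* (−0.19 to 0.15), *Abcb1a* (−0.031 to 0.041), *Abcg2* (−0.055 to 0.036) and *Plvap* (−1.09 to 0.38), in TgNotch3R169C mice for *Cldn5* (−0.038 to 0.097), *Mfsd2a* (−0.082 to 0.18) and *Abcb1a* (−0.035 to 0.067), and without those libraries and replicate 7 for *Ocln* and *Slc2a1* as given above (otherwise −0.23 to −0.10 and −0.22 to −0.079), and between the control groups for *Slc2a1* (−0.073 to 0.097) and *Plvap* (−0.41 to 0.83). Of 270 values of members under alternatives, 239 kept direction and side of the threshold in Notch3-/- mice and 239 of 270 between the control groups, as did 257 of 280 in TgNotch3R169C mice and 97 of 100 for the difference between mutants. The lowest counts in a library were 61 for *Mfsd2a* and 72 for *Plvap*. Whether depth limited their tests was not tested. The labels give no sex, and both sexes were used.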

Other observations

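Genes of the pineal gland, a list made after seeing the data, stood out in a pair of libraries. The summed level of 8 such genes was 42.1 CPM in Notch3-/- replicate 2 and 36.5 CPM in TgNotch3R169C replicate 7, and between 1.64 and 7.87 CPM in all the others. Pituitary genes, 5 in number, summed to 8908 CPM in Notch3+/+ replicate 5 and to 1.48 to 781 CPM elsewhere. Of 5 oligodendrocyte genes, 3 were called higher in non-Tg mice at 12 months than in Notch3+/+ mice at 3 months, with a median log2 fold change of 0.75. *Sox10*, which followed *Mfsd2a* most closely over libraries, is not one of these 5.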
